A study of Mus musculus with 18 samples.

Results

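The interaction of a mutant follicle stimulating hormone receptor with the loss of the luteinizing hormone receptor was measured in mouse testis over all 18 of 18 arrays of the series. The members are arrays, taken by genotype as a 2 by 2 design, and no measured value chose them. The 5 arrays labelled Fshr mutant/Lhr null carry both alleles, here also called the double mutant, and the 5 Lhr null arrays carry the loss of Lhr alone. The 4 Fshr mutant arrays carry the mutant receptor beside intact Lhr, and the 4 wild type arrays carry neither allele. In the deposited table's headers the genotypes read Fshr-CAM/Lhr-/-, WT/Lhr-/-, Fshr-CAM/WT and WT/WT. All mice were 12 weeks old and came from a cross of FVB/N with C57/BL6, and whole-testis total RNA was hybridised to Illumina bead arrays. The headers and labels do not say what Fshr-CAM is; in published work that name stands for a constitutively active receptor driven by the anti-Müllerian hormone promoter of Sertoli cells. The labels do not state that arrays came from separate animals, so p-values cover only the spread among arrays, which may be technical.

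The interaction is a difference of 2 differences on the log2 scale. It is the Fshr mutant/Lhr null level minus the Lhr null level, less the Fshr mutant level minus the wild type level. It is positive where the first difference is the higher one, negative where it is the lower one, and 0 where the mutant and its control differ equally with and without Lhr. A gene was called where the limma test of this term had a Benjamini-Hochberg adjusted p below 0.05 over all tested genes.

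Both receptors are coupled to cyclic AMP through a stimulatory G protein. Luteinizing hormone acts on Leydig cells, which make testosterone, and testosterone acts on the androgen receptor of Sertoli cells to carry meiotic and haploid germ cells to completion. Follicle stimulating hormone acts on Sertoli cells directly, and a testis without Lhr therefore lacks most of the androgen signal while the FSH pathway is still in place. The series title names the crosstalk between the 2 pathways as the question. The interaction term measures how far the differences of the 2 alleles depart from adding up in log2 RNA levels of whole testis. It does not separate signalling from cell make-up.

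Each array detected 15482 to 18950 of 45281 probes at a detection p below 0.01, with a median of 40 to 43 beads behind a probe, and 19076 probes were detected on at least 4 arrays and kept. The brightest probe stood for each of the 10798 genes tested. Markers of Sertoli, Leydig, germ and myoid cells were detected on all 18 arrays where they had a named probe. Of the epididymal markers, Lcn5 and Gpx5 were detected on 0 arrays and Lcn8 on 1. The array labelled replicate 2 of the Fshr mutant/Lhr null group stands apart: its Fshr level was that of wild type and its Leydig transcripts were above those of its group, so values that leaving it out moves by over 1.5 times are given both ways. Lhcgr, which encodes Lhr, had no named probe here, and the loss of Lhr could not be checked on its own transcript.

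Most tested genes had an interaction, with spermatid transcripts on the positive side and spermatogonial, Sertoli, matrix and imprinted growth transcripts on the negative side. The interaction was called in 6488 of 10798 tested genes (60.1%), positive in 2504 (23.2%) and negative in 3984 (36.9%). An unadjusted p below 0.05 was reached by 6933. Without the array labelled replicate 2, the called genes numbered 6313 (58.5%), 22.4% of tested genes positive and 36.0% negative, and 6206 genes were called both ways. The median interaction over all genes was -0.22, and it was -0.05 after cyclic loess normalization, so positions of gene groups are best read against that shift. Large interactions were mostly positive: of the 543 called genes at 2 log2 units or more in size, 503 were positive and 40 negative.

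For most called genes the term came from the arrays without Lhr. Over the called genes the median absolute difference of Fshr mutant/Lhr null from Lhr null was 0.887 log2, against 0.0899 for Fshr mutant from wild type. The Fshr mutant minus wild type difference had a median size of 0.0974 over all tested genes. It reached 0.5 log2 in 64 of the called genes. Of the 2570 called genes with an interaction of 1 or more in size, 2477 had a Fshr mutant/Lhr null level within 0.5 log2 of the Fshr mutant level. This is a description of group means that share arrays, and no test was made of it.

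**Figure D1:**
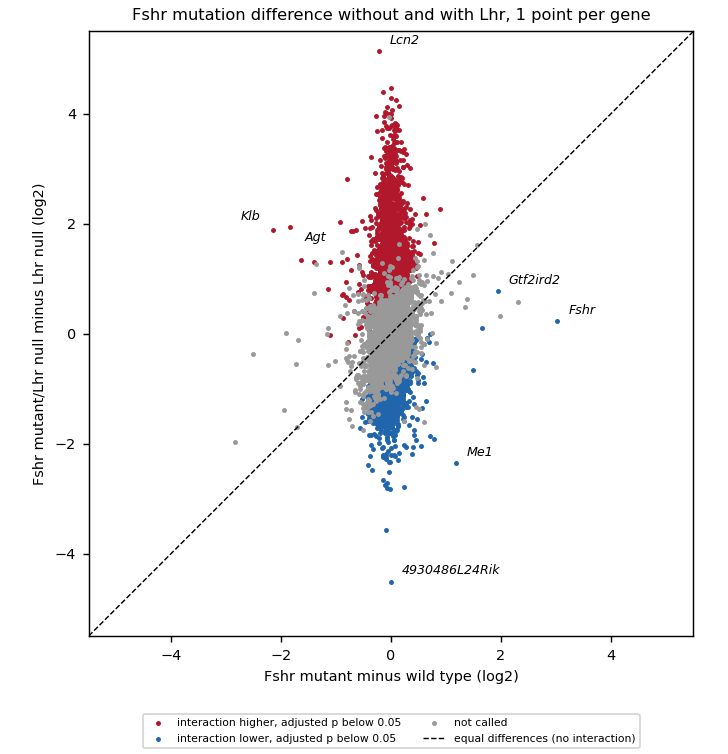
Each point is 1 of the 10798 tested genes, with the log2 difference Fshr mutant minus wild type on the horizontal axis and Fshr mutant/Lhr null minus Lhr null on the vertical axis. Genes called positive (2504, red) and negative (3984, blue) form a narrow vertical band away from the dashed line of equal differences, and Fshr, Klb, Agt, Gtf2ird2 and Me1 lie off that band.

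Fshr itself had a negative interaction. Its signal was higher with either allele alone than in wild type, and the 2 differences did not add up in the double mutant. Fshr was at 8.87, 5.71, 8.63, 9.27 and 8.48 in Fshr mutant/Lhr null against 7.60, 8.37, 8.03, 7.71 and 8.11 in Lhr null arrays, and at 8.55, 8.77, 8.47 and 8.70 in Fshr mutant against 5.70, 5.17, 5.88 and 5.64 in wild type arrays. Wild type was the low group, the Fshr mutant and Lhr null arrays did not overlap with it, and 1 of the 5 double mutant arrays fell inside the wild type range. The interaction was -2.80 ± 0.67 (SE, adjusted p = 0.00173), and -2.17 (adjusted p = 9.84e-06) without the array labelled replicate 2. A second Fshr probe, ILMN_2932141, gave an interaction of -2.14 from other group levels. It averaged 5.73 ± 0.32 in Fshr mutant/Lhr null arrays against 8.23 ± 0.28 in Lhr null (SD, n = 5 each), and 5.64 ± 0.23 in Fshr mutant against 6.003 ± 0.29 in wild type (SD, n = 4 each). That probe was high in Lhr null alone, while the first was high on every array with either allele except labelled replicate 2. The third probe, ILMN_2736929, was detected on 0 arrays. No annotation given here places the probes along the transcript, so which part of the messenger each one reads was not examined.

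Downstream of the receptors, the regulatory subunits of the cyclic AMP-dependent protein kinase had interactions of both signs. Of 18 tested genes of gonadotropin receptor signalling, 4 were called positive and 8 negative, shares of 22.2% and 44.4%. Over all tested genes the shares were 23.2% and 36.9%, so the list as a whole lay near them. Prkar2a encodes a type II regulatory subunit of protein kinase A. Log2 levels of Prkar2a were 7.14, 7.25, 7.41, 7.32 and 7.44 on the Fshr mutant/Lhr null arrays and 5.34, 4.76, 4.73, 4.70 and 5.09 on the Lhr null arrays, with 7.34, 6.95, 7.41 and 7.41 on the Fshr mutant and 7.13, 7.14, 7.18 and 7.14 on the wild type arrays. Lhr null was the only low group, with detection on 1 of 5 arrays, and did not overlap with the others. Its interaction was 2.26 ± 0.18 (SE, adjusted p = 2.88e-07). Prkar1a, the type I alpha regulatory subunit, moved the other way. Prkar1a stood at 10.09, 9.95, 10.09, 9.96 and 10.05 on the Fshr mutant/Lhr null arrays, against 10.93, 11.71, 11.72, 11.62 and 11.70 on those of Lhr null. With Lhr, Prkar1a stood at 10.15, 9.97, 9.998 and 10.05 in Fshr mutant and 10.04, 9.92, 10.39 and 10.11 in wild type arrays. All Lhr null arrays lay above all others, and the interaction was -1.43 ± 0.20 (SE, adjusted p = 1.33e-05). A second probe of Prkar1a gave -0.24 and was not called. Pde4a, a phosphodiesterase that degrades cyclic AMP, had an interaction of 1.701 ± 0.28 (SE, adjusted p = 7.15e-05), with levels of 7.53 to 7.93 in Fshr mutant/Lhr null against 5.08 to 6.57 in Lhr null arrays. Prkar2b had a negative interaction of -1.25 ± 0.37. Creb1, the transcription factor phosphorylated by the kinase, and Prkaca, its catalytic subunit, were not called.

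Transcripts known to answer FSH in Sertoli cells were called negative at a share near that of all genes. Of 17 tested genes of the FSH and cyclic AMP response, 0 were called positive and 6 negative (35.3%, where 36.9% of all genes were negative) by limma, against 0 positive and 7 negative at an unadjusted p below 0.05, and the median interaction was -0.43. Shbg, the androgen binding protein of Sertoli cells, is one of the classical FSH targets in the rat. For Shbg, Fshr mutant/Lhr null arrays gave 6.64, 6.33, 6.74, 6.56 and 6.30 and Lhr null arrays 8.67, 9.31, 9.31, 8.83 and 9.06, while Fshr mutant arrays gave 6.61, 6.92, 6.87 and 6.50 and wild type arrays 6.78, 6.94, 6.84 and 6.47. The Lhr null arrays stood alone above the other 3 groups, which overlapped. The interaction was -2.49 ± 0.21 (SE, adjusted p = 3.38e-07). Inha encodes the inhibin alpha subunit, which feeds back on pituitary FSH. Inha was at 8.37, 8.27, 8.64, 8.69 and 8.40 in Fshr mutant/Lhr null against 9.75, 10.43, 9.99, 9.82 and 9.99 in Lhr null arrays, and at 8.30, 8.61, 8.37 and 8.65 in Fshr mutant against 8.15, 8.26, 7.93 and 8.09 in wild type arrays. Its interaction was -1.90 ± 0.19 (SE, adjusted p = 1.07e-06). Inha was also at a higher level in Fshr mutant than in wild type arrays by 0.37 ± 0.14 log2 (SE), with no overlap between these groups, a difference not tested on its own here. The pro-apoptotic gene Bcl2l11 had an interaction of -0.93 ± 0.20, but of -0.20 (adjusted p = 0.197) with its probes averaged. The immediate-early genes Fos, Egr1, Jun, Junb, Ier3 and Dusp1 were not called.

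**Figure D2:**
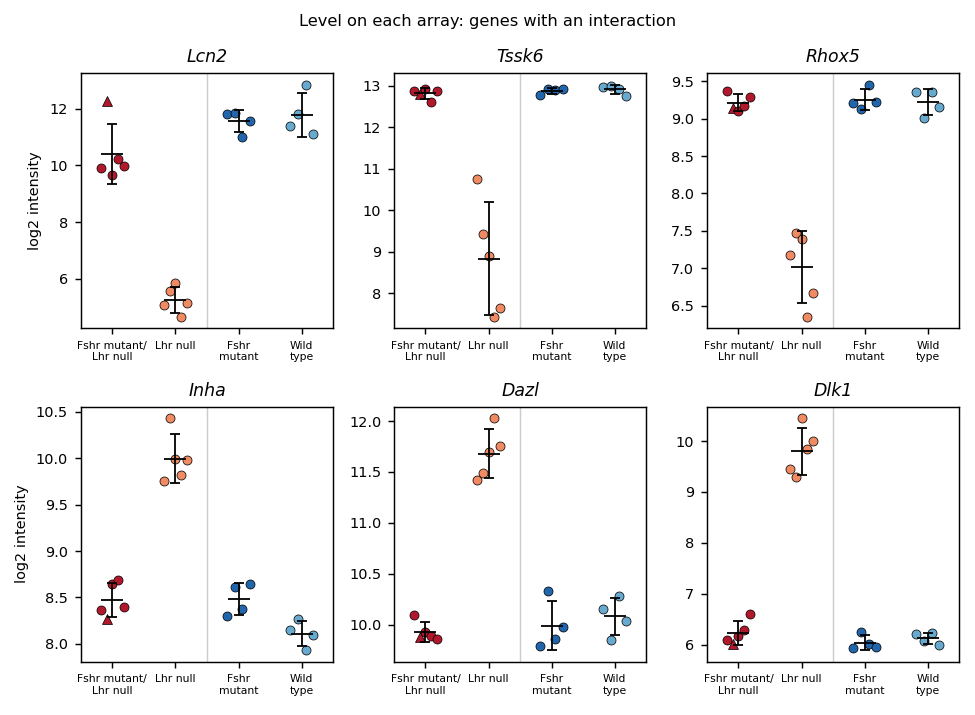
Log2 intensity on every array for 6 genes with an interaction, with the genotype on the horizontal axis, the mean and SD in black and the array labelled replicate 2 of the Fshr mutant/Lhr null group as a triangle. For Lcn2, Tssk6 and Rhox5 the Lhr null arrays are low, for Inha, Dazl and Dlk1 they are high, and the Fshr mutant/Lhr null arrays lie near both groups with Lhr except for Lcn2.

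Genes of the Leydig lists were split: Insl3 and the kallikrein genes of the list had positive interactions, and most steroid synthesis genes were not called. Of 17 tested Leydig genes outside steroid synthesis, 9 were called positive (52.9%) and 3 negative (17.6%), with a median of 1.64. Of 8 tested steroid synthesis genes, 1 was called positive and 2 negative. In whole testis, fewer cells of a type and less RNA per cell cannot be told apart for any gene described here. Insl3 encodes the Leydig hormone that drives testis descent. Log2 levels of Insl3 were 11.41, 12.88, 11.34, 11.71 and 11.29 on the Fshr mutant/Lhr null arrays and 9.39, 10.59, 9.71, 9.18 and 8.94 on the Lhr null arrays, with 13.31, 13.24, 13.25 and 12.88 on the Fshr mutant and 13.22, 12.94, 13.35 and 13.08 on the wild type arrays. Every Fshr mutant/Lhr null array was above every Lhr null array, and of them only labelled replicate 2 reached the range of the groups with Lhr. The interaction was 2.14 ± 0.44 (SE, adjusted p = 0.000433), and 1.85 (adjusted p = 0.000258) without that array. Cyp17a1 encodes the steroid hydroxylase and lyase on the way to androgens. Cyp17a1 stood at 9.87, 11.63, 9.37, 9.996 and 9.38 on the Fshr mutant/Lhr null arrays, against 8.12, 8.003, 8.22, 8.06 and 8.49 on those of Lhr null. With Lhr, Cyp17a1 stood at 12.02, 10.90, 12.03 and 12.44 in Fshr mutant and 12.73, 12.46, 12.96 and 12.16 in wild type arrays. The interaction was 2.60 ± 0.52 (SE, adjusted p = 0.000388), and 2.21 (adjusted p = 9.13e-05) without labelled replicate 2. Its level in Fshr mutant/Lhr null minus that in Fshr mutant arrays was -1.80 log2.

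Hsd17b3, the enzyme that makes testosterone from androstenedione, was not called. For Hsd17b3, Fshr mutant/Lhr null arrays gave 4.87, 7.06, 4.96, 4.53 and 4.45 and Lhr null arrays 4.36, 4.42, 4.57, 4.50 and 4.37, while Fshr mutant arrays gave 6.92, 6.83, 7.26 and 7.64 and wild type arrays 7.02, 7.93, 7.82 and 7.10. It was detected on 1 of 5 Fshr mutant/Lhr null arrays, the one labelled replicate 2, and on 0 of 5 Lhr null arrays. It was detected on all 8 arrays with Lhr. Its fitted interaction was 1.04 ± 0.55 (SE, adjusted p = 0.109), and 0.57 (adjusted p = 0.0973) without labelled replicate 2. With each Lhr null array set at no less than the lowest detected signal it was 0.20. That setting left the undetected Fshr mutant/Lhr null arrays at their own lower values, so 0.20 is not a bound on the interaction. Star, which carries cholesterol into mitochondria, showed the same detection in the 2 groups without Lhr. Its interaction was 0.81 ± 0.51 (SE, adjusted p = 0.183), with levels of 4.41 to 6.14 in Fshr mutant/Lhr null, 4.43 to 4.74 in Lhr null, 4.76 to 6.38 in Fshr mutant and 5.85 to 7.14 in wild type arrays. Without labelled replicate 2 the Star interaction was 0.47 (adjusted p = 0.334), and Fshr mutant/Lhr null minus Lhr null was -0.11. With Lhr null set at the lowest detected signal in the same way the interaction of Star was 0.11, which for the same reason is not a bound. Cyp11a1, the side-chain cleavage enzyme, was not called, at 0.84 ± 0.36 (SE, adjusted p = 0.051), and at 0.64 (adjusted p = 0.0888) without labelled replicate 2. It was called under several other settings, among them cyclic loess (1.05, adjusted p = 0.0222), where Hsd17b3 was called too (1.51, adjusted p = 0.0189). Cyb5a, a cofactor of the lyase step that other cells also make, had a negative interaction of -1.28 ± 0.16 (SE, adjusted p = 5.69e-06). The mitochondrial protein Tspo was also negative, at -0.68 ± 0.22. Tspo was not called under cyclic loess (adjusted p = 0.0894) or without normalization between arrays (adjusted p = 0.0704).

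Over all genes, 2513 differed by 1 log2 or more between Lhr null and wild type, and the interaction was called in all but 99 of them. Over all tested genes 60.1% were called. The Lhr null minus wild type difference is subtracted within the interaction, on the same arrays. A high share of calls among genes chosen by it is therefore built in. Of those 99, 77 were low and 22 high in Lhr null. Ephx1, an epoxide hydrolase, is among the low ones: it averaged 8.64 ± 0.62 in Fshr mutant/Lhr null against 8.18 ± 0.13 in Lhr null (SD, n = 5 each) and 9.95 ± 0.23 in Fshr mutant against 10.25 ± 0.53 in wild type arrays (SD, n = 4 each). Its interaction was 0.76 ± 0.37 (SE), with an adjusted p of 0.0879, and 0.49 (adjusted p = 0.135) without labelled replicate 2. Mrap, the partner protein of melanocortin receptors, had an interaction of 0.16 ± 0.50 (SE, adjusted p = 0.794), but no Fshr mutant/Lhr null array detected it. Ephx1 and Mrap were picked after their values were seen, as examples of these 99.

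Lcn2, which encodes lipocalin 2, an iron and lipid carrier, had the most positive interaction of all. Lcn2 was at 9.92, 12.28, 9.67, 10.21 and 9.98 in Fshr mutant/Lhr null against 5.07, 5.57, 5.85, 4.68 and 5.17 in Lhr null arrays, and at 11.83, 11.84, 10.998 and 11.57 in Fshr mutant against 11.38, 11.82, 12.84 and 11.09 in wild type arrays. The Lhr null arrays were far below all others, and only 2 of the 5 detected the gene. The interaction was 5.37 ± 0.63 (SE, adjusted p = 3.61e-06), and 4.90 (adjusted p = 1.22e-06) without labelled replicate 2, which alone of its group was at the level of arrays with Lhr. Lcn2 is also in the list of epididymal genes. Of the 4 tested genes of that list, Wfdc10 had -2.34 ± 0.23 and the other two were not called. Of the testicular kallikreins, Klk1b8 reached 3.78 ± 0.67 and Klk1b21 2.86 ± 0.91. The Klk1b21 call was lost when its probes were averaged (adjusted p = 0.152) and under array weights (adjusted p = 0.0576). Klk1b22, which is not in the list, was detected on 0 of the arrays without Lhr and was not called (adjusted p = 0.881). Klk1b8 was at 12.43 to 12.69 in Fshr mutant/Lhr null and at 6.85 to 10.61 in Lhr null arrays. It was at 12.52 to 12.63 in Fshr mutant and at 12.43 to 12.74 in wild type arrays, and these ranges overlap with that of the double mutant. Labelled replicate 2, at 12.43, was not above its group as it was for Insl3. Among Lhr null arrays replicate 1 was the highest, as in the spermatid gene Tssk6. Whether Klk1b8 reads Leydig cells here was not tested. The Klk1b genes are near-identical copies whose probes may cross-hybridise, so a value for 1 of them is uncertain.

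Of 14 tested Sertoli transcripts that depend on the androgen receptor, 4 were called positive and 2 negative (28.6% and 14.3%), and 8 were not called. The positive share lies near the 23.2% of all genes. Rhox5, a homeobox gene used as a read-out of androgen action in Sertoli cells, was the strongest. Log2 levels of Rhox5 were 9.37, 9.14, 9.10, 9.17 and 9.29 on the Fshr mutant/Lhr null arrays and 7.18, 7.48, 7.40, 6.36 and 6.67 on the Lhr null arrays, with 9.20, 9.13, 9.45 and 9.22 on the Fshr mutant and 9.35, 9.01, 9.36 and 9.15 on the wild type arrays. Only the Lhr null arrays were low, and the other 3 groups overlapped fully. The interaction was 2.17 ± 0.25 (SE, adjusted p = 3.83e-06). Defb45, a defensin, had 1.90 ± 0.29. Defb45 stood at 10.29, 9.99, 10.17, 10.18 and 10.23 on the Fshr mutant/Lhr null arrays, against 8.17, 8.80, 8.59, 7.40 and 7.86 on those of Lhr null. With Lhr, Defb45 stood at 10.21, 10.45, 10.65 and 10.29 in Fshr mutant and 10.47, 10.41, 10.29 and 10.01 in wild type arrays. The tight junction gene Cldn3 was detected on all arrays but the 5 of Lhr null. It was at least 1.78-fold higher in Fshr mutant/Lhr null than in Lhr null arrays, where the bound sets each dim array at the lowest detected signal or its own, and its fitted interaction was 1.60 ± 0.29 (SE, adjusted p = 0.000173). Corin, a protease, had 0.92 ± 0.21.

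General Sertoli markers were mostly negative. Of 25 tested, 2 were called positive (8%) and 16 negative (64%), where 23.2% and 36.9% of all genes were. The median interaction was -0.89, against -0.22 over all genes. Without labelled replicate 2 the counts were 2 and 14, and under cyclic loess 2 and 12. Sox9, the transcription factor that specifies Sertoli cells, averaged 9.96 ± 0.06 in Fshr mutant/Lhr null against 11.54 ± 0.30 in Lhr null arrays (SD, n = 5 each), and 9.90 ± 0.14 in Fshr mutant against 9.98 ± 0.13 in wild type arrays (SD, n = 4 each). For Sox9, Fshr mutant/Lhr null arrays gave 10.01, 9.92, 9.95, 10.02 and 9.89 and Lhr null arrays 11.08, 11.53, 11.91, 11.51 and 11.65, while Fshr mutant arrays gave 9.73, 10.06, 9.92 and 9.87 and wild type arrays 9.87, 10.05, 10.13 and 9.87. Lhr null was above every other array, and the interaction was -1.49 ± 0.18 (SE, adjusted p = 4.16e-06). Dhh, the hedgehog ligand by which Sertoli cells signal to Leydig cells, had -1.51 ± 0.21. The barrier claudin Cldn11 had -1.23 ± 0.13. The 2 positive members, Ptgds at 2.40 ± 0.36 and Fabp3 at 1.64 ± 0.42, stand in the Leydig list too. The mean log2 level of the 25 Sertoli genes was 8.94 to 9.15 in Fshr mutant/Lhr null arrays against 9.52 to 9.91 in Lhr null, and 9.24 to 9.30 in Fshr mutant against 9.22 to 9.48 in wild type. Since spermatid transcripts were low on the same Lhr null arrays, the part of cell make-up in these values was not tested.

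The spermatogonial transcripts that were called were all negative. Of 18 tested genes, 14 were called negative (77.8%) and 0 positive by limma, against 0 positive and 14 negative at an unadjusted p below 0.05. Under cyclic loess 14 were negative and 1 positive. Dazl encodes an RNA-binding protein needed by germ cells before and during meiosis. Dazl was at 10.09, 9.87, 9.93, 9.89 and 9.86 in Fshr mutant/Lhr null against 11.42, 11.49, 11.70, 12.03 and 11.75 in Lhr null arrays, and at 9.79, 10.33, 9.86 and 9.98 in Fshr mutant against 10.15, 9.85, 10.28 and 10.04 in wild type arrays. Every Lhr null array lay above every other array. The interaction was -1.66 ± 0.19 (SE, adjusted p = 2.6e-06), and its second probe gave -1.67. Foxo1, which marks undifferentiated spermatogonia, had -1.52 ± 0.22, the de novo DNA methyltransferase Dnmt3b had -1.32 ± 0.19, and the germ cell homeobox gene Rhox13 had -1.41 ± 0.19. Stra8 is induced by retinoic acid on entry to meiosis. Its signal was detected on 4 of 5 arrays of Lhr null and on no array of the other 3 groups. Stra8 thus passed the detection filter only through the group where it is high, which favours a negative interaction. Log2 levels of Stra8 were 4.53, 4.44, 4.42, 4.54 and 4.40 on the Fshr mutant/Lhr null arrays and 5.34, 5.52, 5.90, 6.93 and 5.19 on the Lhr null arrays, with 4.41, 4.48, 4.50 and 4.52 on the Fshr mutant and 4.59, 4.59, 4.81 and 4.83 on the wild type arrays. Its fitted interaction was -1.08 ± 0.33 (SE, adjusted p = 0.009), and Lhr null was at least 1.11-fold over Fshr mutant/Lhr null. In the retinoic acid list 6 of 7 tested genes were negative, and 4 without labelled replicate 2. Stra6, the retinol uptake receptor, was detected in Lhr null alone, at least 1.14-fold over the double mutant. Like Stra8, it passed the filter only through that group. The binding protein Crabp1, detected on 0 of 5 Fshr mutant/Lhr null arrays, was at least 1.98-fold over them in Lhr null.

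Spermatocyte genes were mixed. Of 29 tested, 3 were called positive (10.3%) and 14 negative (48.3%). Tex101, a surface glycoprotein of germ cells, was the most negative. Tex101 stood at 9.06, 9.13, 9.34, 8.97 and 9.20 on the Fshr mutant/Lhr null arrays, against 10.63, 10.61, 10.55, 10.91 and 11.05 on those of Lhr null. With Lhr, Tex101 stood at 8.96, 9.32, 8.998 and 8.94 in Fshr mutant and 8.95, 8.77, 9.07 and 9.05 in wild type arrays. Lhr null did not overlap with the rest, and the interaction was -1.704 ± 0.17 (SE, adjusted p = 1.07e-06). Meiob, needed for meiotic recombination, had -1.56 ± 0.19, and Tex11, an X-linked recombination gene, had -1.28 ± 0.18. Pgk2, the autosomal phosphoglycerate kinase that starts in late spermatocytes and persists in spermatids, was positive at 1.38 ± 0.18. Synaptonemal complex genes Sycp1, Syce1 and Syce2 and the lactate dehydrogenase Ldhc were not called.

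In round and elongating spermatids nearly all genes called were positive. Of 38 tested round spermatid and acrosome genes, 31 were positive (81.6%) and 0 negative by limma, against 31 positive and 0 negative at an unadjusted p below 0.05. Of 47 tested elongating spermatid genes, 41 were positive (87.2%) and 1 negative. The median interaction was 1.29 for the round and 2.11 for the elongating list. All 5 scalings gave 30 to 32 positive round spermatid genes and 39 to 42 positive elongating ones. The negative member was the tubulin gene Tuba3b, at -0.40, and it was chosen for mention after its value was seen.

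Tssk6, a serine kinase of elongating spermatids needed for packing of sperm chromatin, is one of the lead genes. For Tssk6, Fshr mutant/Lhr null arrays gave 12.88, 12.81, 12.92, 12.61 and 12.88 and Lhr null arrays 10.75, 9.43, 8.89, 7.44 and 7.64, while Fshr mutant arrays gave 12.78, 12.92, 12.89 and 12.92 and wild type arrays 12.98, 12.99, 12.94 and 12.75. The Lhr null arrays were widely spread and did not reach the other groups, whose values lay between 12.61 and 12.99. The interaction was 4.03 ± 0.62 (SE, adjusted p = 3.86e-05). Spata32 had 4.28 ± 0.57. Spata32 was at 10.96, 11.02, 11.05, 11.07 and 10.89 in Fshr mutant/Lhr null against 8.47, 7.35, 6.58, 5.5 and 5.64 in Lhr null arrays, and at 11.01, 11.21, 10.98 and 11.05 in Fshr mutant against 10.998, 11.20, 11.13 and 10.90 in wild type arrays. The carbonic anhydrase gene Car2 had 4.45 ± 0.53. Log2 levels of Car2 were 10.43, 10.60, 10.65, 10.37 and 10.49 on the Fshr mutant/Lhr null arrays and 7.76, 6.43, 5.95, 4.78 and 5.32 on the Lhr null arrays, with 10.51, 10.24, 10.70 and 10.54 on the Fshr mutant and 10.49, 10.57, 10.36 and 10.55 on the wild type arrays. In Tssk6, Spata32 and Car2 alike, Lhr null replicate 1 was the highest of its group. Gapdhs, the sperm-specific glyceraldehyde phosphate dehydrogenase, had 2.85 ± 0.37, and its second probe gave 3.36. Gapdhs stood at 12.57, 12.60, 12.49, 12.43 and 12.43 on the Fshr mutant/Lhr null arrays, against 10.91, 10.14, 9.43, 9.08 and 9.06 on those of Lhr null. With Lhr, Gapdhs stood at 12.62, 12.49, 12.58 and 12.51 in Fshr mutant and 12.70, 12.56, 12.59 and 12.61 in wild type arrays. Theg, a spermatid gene, had 2.33 ± 0.25, and its 3 probes lay between 2.30 and 2.48. Tnp1, the transition protein that replaces histones, had a smaller interaction of 1.17 ± 0.31 (SE, adjusted p = 0.00379). For Tnp1, Fshr mutant/Lhr null arrays gave 13.59, 13.81, 13.75, 13.99 and 13.77 and Lhr null arrays 13.46, 12.65, 12.48, 11.88 and 12.14, while Fshr mutant arrays gave 14.06, 13.91, 13.82 and 13.68 and wild type arrays 13.94, 13.72, 13.46 and 14.00. Prm1, the protamine that follows it on the DNA, was not called, at 0.54 ± 0.29 (SE, adjusted p = 0.123). It was called without Lhr null replicate 1 (adjusted p = 0.0222) or wild type replicate 3 (adjusted p = 0.035). With array weights it was called too (0.71, adjusted p = 0.0115). Whether its high signal limited the differences was not tested. Prm1 was at 14.43, 14.52, 14.55, 14.32 and 14.52 in Fshr mutant/Lhr null against 14.52, 14.15, 13.85, 13.25 and 13.45 in Lhr null arrays, and at 14.62, 14.40, 14.43 and 14.52 in Fshr mutant against 14.70, 14.38, 13.86 and 14.68 in wild type arrays.

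The mean level of the 47 elongating spermatid genes was 11.67 to 11.85 in Fshr mutant/Lhr null arrays against 9.13 to 10.66 in Lhr null, and 11.75 to 11.87 in Fshr mutant against 11.82 to 11.86 in wild type arrays. Among the Lhr null arrays replicate 1 was the highest, at 10.66, and the other 4 lay at 9.13 to 9.95. Without Lhr null replicate 1 the number of called genes was 6761, the highest of all runs that left out 1 array.

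Part of the spermatid genes hold a common octamer upstream of their start sites, which the rule did not use. Promoter sequences of 250 bases before the start were taken from RefSeq (GRCm38.p6), and 8805 of the 10798 tested genes had at least 1. Each was searched on both strands for the cyclic AMP response element TGACGTCA, for its core TGACG, which overlaps it, and for the spermatid variant TGATGTCA (TGACATCA on the other strand), which was added after the promoters of Tnp1 and Gapdhs were seen. Crem, a cyclic AMP response element modulator whose activator form drives spermatid genes, is known to act through such elements, and it was called here at 0.51. Tnp1 and Gapdhs are shown because they carry the variant and were named for other reasons, with the octamer in capitals, 5′ to 3′ on the strand of the gene. The Tnp1 stretch is chr1:73015900-73016149 and that of Gapdhs is chr7:30743682-30743931, both on the minus strand.
Tnp1: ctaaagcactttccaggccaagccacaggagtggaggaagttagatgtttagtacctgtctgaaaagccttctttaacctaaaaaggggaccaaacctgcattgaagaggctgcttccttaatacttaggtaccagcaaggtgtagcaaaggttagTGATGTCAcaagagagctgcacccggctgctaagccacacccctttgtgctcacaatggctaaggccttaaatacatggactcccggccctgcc
Gapdhs: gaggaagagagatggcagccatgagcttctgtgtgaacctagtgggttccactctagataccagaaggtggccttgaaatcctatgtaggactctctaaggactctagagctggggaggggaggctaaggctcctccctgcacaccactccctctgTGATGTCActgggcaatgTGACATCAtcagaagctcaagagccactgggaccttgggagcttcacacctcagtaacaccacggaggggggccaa
In Tnp1 the octamer began 94 bases before the start. Gapdhs held it in both orientations, at 94 and 76 bases before the start.

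Windows of 30 bases around the octamer are given for 8 further spermatid genes of the 2 lists, to show how the flanks vary, again with the octamer in capitals and on the gene's strand. They were chosen after the search.
Akap3: tatagaaacagTGATGTCActagctgcaat
Akap4: tatagaaacagTGATGTCAtgaattttaag
Actl7a: gtcacaatcagTGATGTCActgttgggcag
Actl7b: accattcctggTGACATCAcaacccaagtg
Hk1: taaccagttgaTGACATCAtagagtttgag
Spam1: agttcactttgTGATGTCAtctgttcctag
Hyal5: tgtctactttgTGATGTCAtctgcttctag
Fam71f1: gtggtttttcaTGATGTCAtccattcatca
The Akap3 and Akap4 windows, on chr6:126853065-126853094 and chrX:7067469-7067498, are identical from their first base to the end of the octamer. Both genes encode kinase anchoring proteins of the sperm tail. Spam1 and Hyal5, hyaluronidase genes on chr6:24791131-24791160 and chr6:24857901-24857930, share most of their flanking letters. Actl7a lies on chr4:56743371-56743400 and Actl7b, another actin-related gene, on chr4:56741443-56741472. In Actl7b and Hk1 the octamer reads TGACATCA. Hk1, a hexokinase with a spermatid form, lies on chr10:62379942-62379971, and Fam71f1 on chr6:29319061-29319090.

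TGATGTCA was held by 8 of 30 round spermatid genes and 7 of 41 elongating spermatid genes with a promoter sequence. It was held by 0 of 14 spermatogonial, 0 of 25 spermatocyte and 0 of 19 Sertoli genes. Over all tested genes with a sequence it stood in 7.09% of the 2017 called positive, 1.3% of the 3296 called negative and 2.38% of the 3492 not called, and in 3.41% of all 27025 genes with a promoter sequence. A gene was counted where any of its promoters held the letters. The palindrome TGACGTCA did not sort this way, with 2.73%, 3.46% and 2.86% in that order, and 1.77% of all genes. The core TGACG stood in 24.8%, 31.6% and 29.8%, and in 19.8% of all genes. A match describes letters in a window, not a binding site, and no test was made of these shares. The TGATGTCA counts of the spermatid lists and of the positive genes include Tnp1 and Gapdhs. The variant was added after their promoters were seen, so those counts are not independent of its choice. Tssk6 had a TGACG core and neither octamer. The 8 genes shown by their windows were all called, with an interaction of 2.21 for Akap3, 2.52 for Akap4, 1.53 for Actl7a, 1.16 for Actl7b, 2.86 for Hk1, 1.13 for Spam1, 1.64 for Hyal5 and 3.14 for Fam71f1. Not every list gene with the octamer was called. Pgam2, whose window is not shown, held it 225 bases before the start and had 0.27 (limma adjusted p = 0.0782). As the 8 were chosen after the search, their calls say nothing about the octamer.

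**Figure D3:**
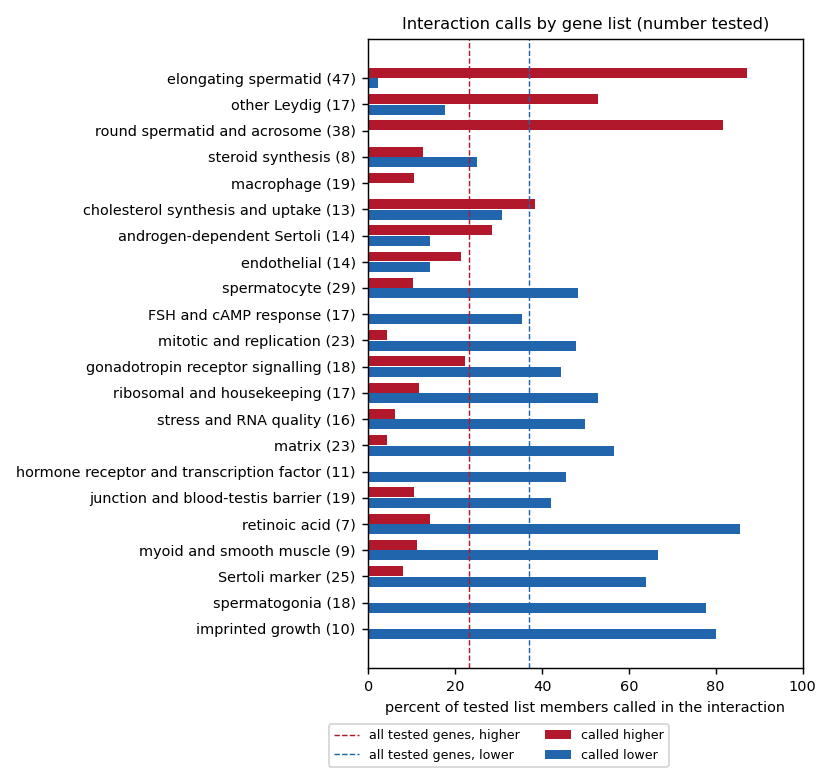
Share of the tested members of each gene list (number in brackets) called positive (red) or negative (blue) in the interaction, in percent, with lists ordered by median interaction and dashed lines for all tested genes at 23.2% and 36.9%. Spermatid lists reach 81.6% and 87.2% positive, and imprinted growth and spermatogonial lists 80.0% and 77.8% negative.

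Imprinted growth genes had mostly negative interactions. Of 10 tested, 8 were called negative and 0 positive by limma, against 0 positive and 8 negative at an unadjusted p below 0.05, with a median of -1.01. Dlk1, a Notch-like ligand of immature and fetal cells including fetal Leydig cells, led them. Log2 levels of Dlk1 were 6.09, 6.02, 6.16, 6.30 and 6.61 on the Fshr mutant/Lhr null arrays and 9.44, 9.29, 10.45, 9.84 and 9.99 on the Lhr null arrays, with 5.95, 6.25, 6.01 and 5.96 on the Fshr mutant and 6.21, 6.08, 6.23 and 5.996 on the wild type arrays. The Lhr null arrays stood far above all others without overlap. The interaction was -3.48 ± 0.26 (SE, adjusted p = 1.16e-07), and a second probe gave -2.51. Peg3 had -1.51 ± 0.21, and Igf2r, the clearance receptor of insulin-like growth factor 2, had -1.15 ± 0.21. Dcn, the proteoglycan decorin, which is also a matrix gene, had -1.58 ± 0.18.

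Matrix and peritubular genes were also mostly negative. Of 23 matrix genes, 13 were called negative and 1 positive (56.5% and 4.35%). Col18a1, the basement membrane collagen that yields endostatin, led. Col18a1 stood at 8.04, 8.20, 8.28, 8.23 and 8.34 on the Fshr mutant/Lhr null arrays, against 10.27, 10.98, 11.20, 11.44 and 11.17 on those of Lhr null. With Lhr, Col18a1 stood at 8.41, 8.44, 8.32 and 8.32 in Fshr mutant and 8.25, 8.15, 8.30 and 7.89 in wild type arrays. The interaction was -3.03 ± 0.24 (SE, adjusted p = 2.31e-07). Mgp, matrix Gla protein, had -2.06 ± 0.30, and the protease Mmp2 had -1.20 ± 0.32. Of 9 myoid and smooth muscle genes 6 were negative, among them the actin gene Acta2 at -1.13 ± 0.17. Actg2, the enteric smooth muscle actin, was the positive one at 2.12 ± 0.41. The hedgehog receptor Ptch1, detected on all Lhr null arrays and on 1 array of each other group, had -1.33 ± 0.29. Without its detection in Lhr null it would not have passed the filter.

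The most negative interaction of all belonged to 4930486L24Rik, for which the sources used here give no role. For 4930486L24Rik, Fshr mutant/Lhr null arrays gave 4.80, 4.61, 4.98, 4.77 and 4.61 and Lhr null arrays 9.07, 9.19, 10.04, 8.88 and 9.15, while Fshr mutant arrays gave 4.89, 5.08, 4.87 and 4.70 and wild type arrays 4.62, 4.73, 5.61 and 4.60. It was detected on all 5 Lhr null arrays and on 1 other, a wild type array. Lhr null was at least 12.5-fold over Fshr mutant/Lhr null, and the fitted interaction was -4.51 ± 0.30 (SE, adjusted p = 5.91e-08). Fam155a and Rab7b were likewise detected in Lhr null alone, at least 3.04-fold and 3.42-fold over Fshr mutant/Lhr null. In all, 151 called genes were detected only on Lhr null arrays, and 179 on some arrays of each of the other groups but no Lhr null array. The same counts over all tested genes are not given here. Genes detected in Lhr null alone, and 4930486L24Rik, passed the detection filter only through the Lhr null arrays. A high Lhr null level, and with it a negative interaction, was thus selected for among them.

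Genes of sterol supply were divided. Of 13 cholesterol synthesis and uptake genes, 5 were positive and 4 negative (38.5% and 30.8%), and the median was 0.18, turning to -0.02 under median scaling and -0.05 without normalization. Insig1, which holds the sterol sensor in the endoplasmic reticulum, had 2.26 ± 0.25 (SE, adjusted p = 2.05e-06). Insig1 was at 8.45, 8.43, 8.77, 8.77 and 8.57 in Fshr mutant/Lhr null against 6.96, 6.399, 6.04, 5.93 and 6.52 in Lhr null arrays, and at 8.52, 8.55, 8.46 and 8.43 in Fshr mutant against 8.84, 8.43, 8.16 and 8.63 in wild type arrays. Of its 3 probes, 1 more gave 2.29 and the third gave -0.84 and was not called. Cyp51, the lanosterol demethylase that germ cells make in large amounts, had 1.97 ± 0.32. Scap, the escort protein of the sensor, was negative at -0.96 ± 0.20.

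Markers of macrophages, endothelium, lymphocytes and red cells were called less often than the 60.1% of all tested genes. Of 19 macrophage genes, 2 were called positive and 0 negative by limma (10.5% and 0%), against 3 positive and 0 negative at an unadjusted p below 0.05. They were Aif1 at 2.22 ± 0.35 and the complement gene C1qb at 1.05 ± 0.28. Of 14 endothelial genes 3 were positive and 2 negative, with Sox17 at 1.65 ± 0.18, Vwf at 1.47 ± 0.19 and Robo4 at -2.15 ± 0.35. Of 3 lymphocyte genes Cd3d was positive at 2.66 ± 0.37, while Cd3e and Cd4 were not called. Of 4 red cell genes only the haem synthesis gene Alas2 was called, at 2.66 ± 0.28, and the globins were not. The replication, housekeeping, stress, junction and receptor lists are not markers of other cells. Their negative shares ran from 42.1% to 52.9%, against 36.9% of all genes. Their positive shares ran from 0% to 11.8%, against 23.2%. Of 23 replication genes 11 were negative (47.8%) and 1 positive, with the helicase subunits Mcm4 at -1.46 ± 0.20 and Mcm5 at -1.51 ± 0.19. Foxm1 was the positive exception at 1.35 ± 0.14. Of 17 ribosomal and housekeeping genes 9 were negative and 2 positive, with Rps3 at -1.18 ± 0.13 and Actb at 0.99 ± 0.22. The 5 Actb probes disagreed, from -0.81 to 1.09. Of 16 stress genes 8 were negative and 1 positive, with the chaperone Hspa8 at -1.52 ± 0.18. Of 19 junction genes 8 were negative and 2 positive, and Ctnnb1, beta-catenin, had -1.56 ± 0.29. Of 11 hormone receptor and transcription factor genes 5 were negative, among them the growth factor receptor Igf1r at -1.03 ± 0.24, and of 5 genes of immature Leydig cells 1 was positive and 2 negative. Without labelled replicate 2 the immature Leydig list had 1 negative gene and the housekeeping list 1 positive.

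In a small set the Fshr mutant arrays also stood apart from wild type. Of 206 tested genes with a Fshr mutant minus wild type difference of 0.5 or more in size, 64 were called, where 60.1% of all genes were. In 49 genes called both ways, that difference opposed the interaction. As it is subtracted within the interaction, on the same arrays, an opposite sign is favoured by construction. Among the 49, after Fshr, the largest such difference was that of Klb, a co-receptor of endocrine fibroblast growth factors. Log2 levels of Klb were 7.77, 7.59, 8.34, 8.55 and 6.03 on the Fshr mutant/Lhr null arrays and 7.02, 6.48, 4.86, 5.503 and 5.04 on the Lhr null arrays, with 5.34, 7.66, 5.996 and 5.602 on the Fshr mutant and 8.79, 8.22, 7.61 and 8.55 on the wild type arrays. All Lhr null arrays and 3 of 4 Fshr mutant arrays were below every wild type array, and 4 of 5 Fshr mutant/Lhr null arrays were at or just under the wild type range. The interaction was 4.02 ± 0.77 (SE, adjusted p = 0.000247). Agt, angiotensinogen, was lower with either allele. Agt stood at 6.72, 5.13, 8.30, 7.54 and 6.86 on the Fshr mutant/Lhr null arrays, against 4.59, 5.55, 4.70, 5.02 and 4.99 on those of Lhr null. With Lhr, Agt stood at 6.91, 8.81, 5.49 and 7.98 in Fshr mutant and 9.36, 8.90, 9.39 and 8.89 in wild type arrays. Its interaction was 3.78 ± 0.80 (SE, adjusted p = 0.000608), and 4.22 (adjusted p = 0.000107) without labelled replicate 2, which was the lowest of its group. Gtf2ird2 was low on 3 of the 4 wild type arrays. For Gtf2ird2, Fshr mutant/Lhr null arrays gave 9.31, 8.60, 9.10, 8.79 and 9.27 and Lhr null arrays 8.11, 8.23, 8.50, 8.11 and 8.23, while Fshr mutant arrays gave 9.04, 9.47, 8.64 and 9.12 and wild type arrays 8.52, 6.66, 6.89 and 6.45. Its interaction was -1.16 ± 0.43 (SE, adjusted p = 0.0268), lost without Fshr mutant replicate 2 (adjusted p = 0.06) or wild type replicate 2, 3 or 4 (adjusted p = 0.0517 to 0.0684), and another of its 3 probes gave -0.19. Zfp951 had -1.56 ± 0.59, and its adjusted p ran to 0.0684 with single arrays left out. Ccng2, a cyclin-like gene picked after its values were seen, was detected on none of the 4 wild type arrays. Ccng2 was at 5.64, 6.10, 5.85, 5.63 and 5.79 in Fshr mutant/Lhr null against 4.60, 6.34, 7.19, 7.32 and 6.86 in Lhr null arrays, and at 6.84, 6.50, 5.8 and 5.799 in Fshr mutant against 4.86, 4.80, 4.63 and 4.73 in wild type arrays. Its fitted interaction was -2.14 ± 0.55.

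**Figure D4:**
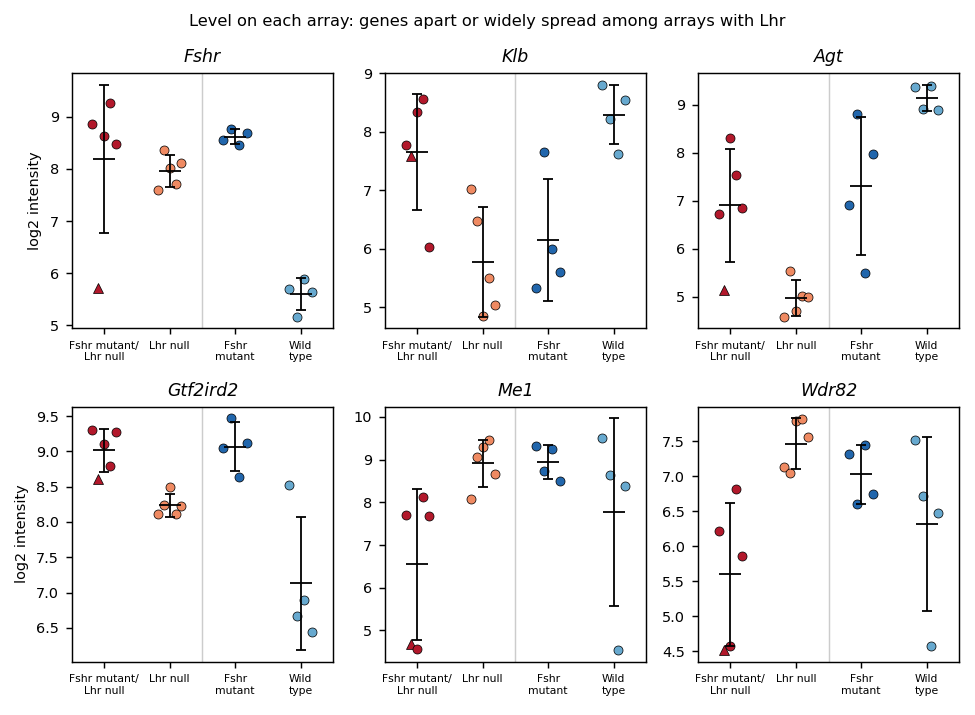
Log2 intensity on every array for 6 genes that stood apart or were widely spread among arrays with Lhr, with the genotype on the horizontal axis, mean and SD in black and the array labelled replicate 2 of the Fshr mutant/Lhr null group as a triangle. Fshr is low in wild type and at the triangle, Gtf2ird2 is low on 3 wild type arrays, Klb is low in Lhr null and on 3 of 4 Fshr mutant arrays, and Me1 and Wdr82 are low on the same 3 arrays.

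Me1, cytosolic malic enzyme, had a strongly negative interaction with a wide spread within groups. Log2 levels of Me1 were 7.71, 4.67, 4.58, 8.12 and 7.69 on the Fshr mutant/Lhr null arrays and 8.08, 9.05, 9.31, 9.45 and 8.67 on the Lhr null arrays, with 9.31, 8.72, 9.25 and 8.50 on the Fshr mutant and 9.50, 8.65, 4.54 and 8.37 on the wild type arrays. Levels of 4.54 to 4.67 were found on 3 arrays, replicates 2 and 3 of Fshr mutant/Lhr null and replicate 3 of wild type. The interaction was -3.54 ± 1.21 (SE, adjusted p = 0.0176), and it ran between -4.12 and -2.46 when each array was left out in turn. Wdr82, picked after its values were seen because it lies on chromosome 9 as Me1 does, was low on the same 3 arrays. Wdr82 stood at 6.22, 4.52, 4.57, 6.82 and 5.86 on the Fshr mutant/Lhr null arrays, against 7.13, 7.05, 7.79, 7.82 and 7.55 on those of Lhr null. With Lhr, Wdr82 stood at 7.32, 6.60, 7.44 and 6.74 in Fshr mutant and 7.51, 6.72, 4.58 and 6.47 in wild type arrays. Its interaction was -2.58 ± 0.71 (SE, adjusted p = 0.0047). In 12 called genes the range within Fshr mutant/Lhr null, Fshr mutant or wild type was 3 log2 units or more, among them Fshr, Agt, Me1, Klk1b21 and Klk1b27, and for these a group mean describes its arrays poorly.

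In a last set the mean Lhr null level was within 0.5 log2 of wild type. For most of these genes the double mutant stood apart, which the choice itself largely fixes. The interaction is also Fshr mutant/Lhr null minus Fshr mutant, less Lhr null minus wild type. Aldh1a1, a retinal dehydrogenase found in Leydig and Sertoli cells, is described first. For Aldh1a1, Fshr mutant/Lhr null arrays gave 8.96, 9.21, 8.28, 9.38 and 8.50 and Lhr null arrays 9.75, 10.47, 10.32, 10.87 and 9.40, while Fshr mutant arrays gave 10.36, 10.12, 10.12 and 9.68 and wild type arrays 10.66, 9.999, 10.25 and 10.30. All 5 Fshr mutant/Lhr null arrays lay below all others. The interaction was -1.06 ± 0.38 (SE, adjusted p = 0.0221). Akr1cl, an aldo-keto reductase, was low on 4 of the 5 Fshr mutant/Lhr null arrays, with labelled replicate 2 among the Lhr null values. Akr1cl was at 9.49, 10.48, 9.09, 9.13 and 9.03 in Fshr mutant/Lhr null against 10.56, 10.58, 10.78, 10.34 and 10.32 in Lhr null arrays, and at 10.84, 10.68, 10.57 and 10.72 in Fshr mutant against 10.71, 10.88, 11.55 and 10.68 in wild type arrays. The interaction was -0.82 ± 0.34 (SE, adjusted p = 0.0458), and -1.08 (adjusted p = 0.000862) without that array. Slc45a3, a transporter, had -1.12 ± 0.36 (SE, adjusted p = 0.0114). Log2 levels of Slc45a3 were 4.53, 5.54, 4.77, 4.62 and 4.92 on the Fshr mutant/Lhr null arrays and 5.76, 6.44, 5.77, 5.57 and 5.93 on the Lhr null arrays, with 6.96, 6.30, 5.74 and 6.11 on the Fshr mutant and 5.87, 6.30, 6.69 and 5.83 on the wild type arrays. Papss2, a sulphate donor synthase picked after its values were seen, was above wild type in Lhr null and below it in the double mutant. Papss2 stood at 6.76, 6.90, 6.51, 6.22 and 6.25 on the Fshr mutant/Lhr null arrays, against 7.68, 7.71, 7.98, 7.67 and 7.71 on those of Lhr null. With Lhr, Papss2 stood at 7.04, 7.15, 7.22 and 7.29 in Fshr mutant and 7.32, 7.26, 7.57 and 7.16 in wild type arrays. Its interaction was -1.07 ± 0.19 (SE, adjusted p = 0.00012). Igfbp7 had a lesser -0.61 ± 0.25 (SE, adjusted p = 0.0418). Tmem198 was highest with both alleles. For Tmem198, Fshr mutant/Lhr null arrays gave 6.03, 6.42, 6.55, 6.63 and 6.95 and Lhr null arrays 5.17, 4.80, 4.93, 4.87 and 5.42, while Fshr mutant arrays gave 5.32, 5.55, 5.89 and 6.03 and wild type arrays 4.98, 5.55, 5.86 and 5.16. The Fshr mutant/Lhr null arrays lay above the other groups except for 1 Fshr mutant array level with the lowest of them. Its interaction was 1.17 ± 0.29 (SE, adjusted p = 0.00198). Ephb1, an ephrin receptor, had 1.97 ± 0.58 (SE, adjusted p = 0.00742), on a wide spread within the Fshr mutant and wild type groups. Its double mutant arrays overlapped with wild type. Fshr mutant minus wild type was -1.15, larger in size than the 0.82 of Fshr mutant/Lhr null minus Lhr null. Ephb1 was at 6.74, 8.15, 7.90, 7.25 and 7.37 in Fshr mutant/Lhr null against 6.81, 6.65, 6.48, 6.61 and 6.78 in Lhr null arrays, and at 5.52, 7.06, 5.37 and 5.16 in Fshr mutant against 5.55, 6.92, 7.84 and 7.41 in wild type arrays. In all, 15 genes called both ways had an interaction of 1 or more in size while Lhr null was within 0.5 log2 of wild type. By arithmetic, Fshr mutant/Lhr null minus Fshr mutant is then over 0.5 log2 in size in each of them. The number of tested genes with Lhr null this near wild type is not given here. Under cyclic loess Aldh1a1 (adjusted p = 0.0514), Slc45a3 (0.0639), Akr1cl (0.113) and Igfbp7 (0.129) were not called.

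**Figure D5:**
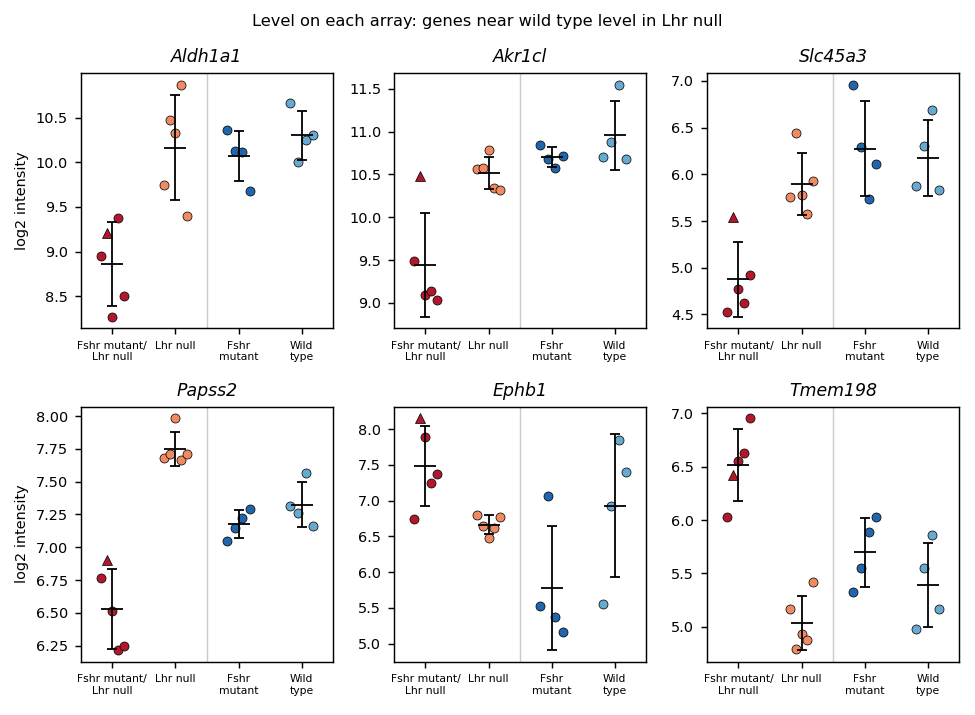
Log2 intensity on every array for 6 genes with an interaction whose Lhr null level was near that of wild type, with the genotype on the horizontal axis, mean and SD in black and the array labelled replicate 2 of the Fshr mutant/Lhr null group as a triangle. Aldh1a1, Slc45a3 and Papss2 are lowest in Fshr mutant/Lhr null, Akr1cl is lowest there but for the triangle, and Tmem198 is highest. The Papss2 arrays of Lhr null lie above those of wild type. For Ephb1 the Fshr mutant/Lhr null arrays overlap with wild type.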

How the data were processed

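Whole-testis total RNA of 18 arrays was profiled on Illumina bead arrays. Per the submitters' processing notes the authors used GenomeStudio 1.7.0, and no source read for this report records other steps. In the first deposited table, each probe and array has, per the file headers, a mean bead intensity on a linear scale without normalization, a detection p-value and a bead count. The authors' processed intensity values, deposited as another table with unstated normalization, served as an alternative. Detection p-values are multiples of 1 over 936.

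Here, intensities were background corrected with normexp (limma 3.58.1, R 4.3.3, offset 16, background inferred from detection p-values), quantile normalized and taken to log2. Probes detected at p below 0.01 on at least 4 arrays were kept. Symbols of 34807 of 45281 probes were updated through gene identifiers; 34885 probes have 1 symbol, 18 several and 10378 none. Of 3748 genes with several probes past the filter, 225 had probes called in opposite directions. Groups came from the genotype labels. All arrays entered 1 limma fit with 4 group means (lmFit, eBayes, two-sided, Benjamini-Hochberg). Replicate numbers were not used to pair arrays. In 3 simulations of this comparison over 10798 genes the fit recovered 67.5% of genes changed by a fold of 2 and 94.6% at a fold of 4, with 5.08% of calls false. The simulations gave an interaction to few genes and each gene the same spread in all groups. In the data most genes were called and some, such as Tssk6, were spread more widely in Lhr null. The simulated rates therefore need not hold here. The number of arrays limits precision.

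Named genes are the 10 highest and 10 lowest interactions called with and without the array labelled replicate 2 of the double mutant, up to 4 members per list, and genes with a Fshr mutant difference opposing the interaction, with Lhr null near wild type, or with an interaction in the direction of Lhr loss, plus a fixed set. Values are printed for part of them. Folds against groups with no detection are lower bounds. The comparison, lists and rules were chosen with earlier results of these data known.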

Additional observations from a re-analysis of the deposited data

Results flagged for a closer look

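The interaction itself is a difference between 2 backgrounds of the same contrast, and its test called 6488 genes.

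Values of 1 array far from the rest of its group were searched for in 46 genes and the number of detected probes, 188 tests in all. There were 19 such values, where about 1 in 20 tests, or 9.4, would be found by chance. Of them, 6 were on the array labelled replicate 2 of Fshr mutant/Lhr null. There Fshr was low at 5.71, against 8.48 to 9.27 on the other 4 arrays of the group. Lcn2 was high at 12.28, against 9.67 to 10.21, Cyp17a1 at 11.63, against 9.37 to 9.996, and Insl3 at 12.88, against 11.29 to 11.71. Hsd17b3 was at 7.06, against 4.45 to 4.96, and Star at 6.14, against 4.41 to 4.51. Replicate 1 of that group had Dazl at 10.09.

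In Lhr null, replicate 3 had 4930486L24Rik at 10.04, Cyp11a1 at 5.44 and Papss2 at 7.98, and replicate 1 had Prkar1a at 10.93. In Fshr mutant, replicate 1 had Tssk6 at 12.78. Replicate 2 of that group had Theg at 10.63, Tex101 at 9.32 and Prkar2a at 6.95, and replicate 4 had Insl3 at 12.88. In wild type, replicate 3 had 4930486L24Rik at 5.61, Prkar2a at 7.18 and Actb at 13.18.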

How the results depend on the processing

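Of 10798 genes, 6488 were called, 2504 higher and 3984 lower. Leaving out each of the 18 arrays in turn gave 6165 to 6761 calls, 2382 to 2591 higher and 3780 to 4170 lower. Without normalization between arrays 4257 genes were called, 1689 higher and 2568 lower. Testing every probe past the filter called 10999 of 19076, 4520 higher and 6479 lower, a larger set by construction. Cyclic loess called 6017 and moved the share of higher calls to 50.3% from 38.6%; it moved the median of all genes to -0.05 from -0.22. The other alternatives (background correction, offset, median scaling, the authors' processed values, detection filters, mean of probes, array weights, variance trend) called 5418 to 6981 genes, with 38.1% to 40% of calls higher. The filter asking for detection in every group, chosen after seeing the data, called 5923 of 9713. With the replicate number as a block 6373 were called. The labels give no shared source for a number, and residuals of same-numbered arrays correlated at -0.316 to 0.215 over 25 pairs. No chip is named in the headers, so the chip block was not run. The mean of probes called 23 genes in the opposite direction to the main fit, and no filter on detection 1. Over the named genes, 3785 values under these alternatives kept direction and side of the threshold, 82 lost the call and 17 gained it, and none changed sign; on the linear scale 0 called genes had an interaction of the opposite sign. The calls lost were mostly of genes near the threshold, such as Akr1cl, Igfbp7, Gin1, Gtf2ird2 and Zfp951; the cause was not tested. Signal limits dim genes: 593 called genes had a group with no detection.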

Other observations

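The 49 genes called both ways whose Fshr mutant minus wild type difference was 0.5 log2 or more and opposed the interaction were unevenly placed. Of them, 12 (24.5%) lie on chromosome 5, which holds 6.67% of the tested genes, among them Klb, Gtf2ird2, Zfp951, Ccng2, Adgra3 and Lgi2. Chromosome 9 holds 7 (14.3%), against 5.68% of tested genes, among them Me1, Ephb1, Nmnat3 and Wdr82. These shares were noticed in the data and no test was made of them. The Fshr mutant minus wild type difference is part of the interaction, so the choice of these genes favours opposite signs.

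Klk1b21, Klk1b24 and Klk1b27, kallikrein genes of chromosome 7, had wild type levels spread over 4.28, 3.21 and 4.49 log2 units and Fshr mutant levels over 0.283, 0.261 and 0.295. In all 3, wild type replicate 3 was the highest and replicate 4 the lowest. Fcmr, an immunoglobulin M receptor, was at 6.45 on Fshr mutant replicate 2 against 9.11 to 9.58 on the other three of that group.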
